A study of Mus musculus with 18 samples.

Results

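The chemokine receptors described here are *Ccr1*, *Ccr2*, *Ccr3*, *Ccrl2*, *Cxcr2*, *Cxcr4* and *Cx3cr1*, 7 genes chosen by name among the 55029 or 54232 genes (by library set) counted in mouse eosinophils. Chemokine receptors span the membrane of leukocytes, bind small secreted chemokines and signal through inhibitory G proteins, which directs cell migration. CCR3 binds the eotaxins and is the receptor best known for drawing eosinophils into tissue, whereas CXCR4 holds leukocytes in bone marrow and CXCR2 is known from neutrophils. CCRL2 is an atypical member that binds chemerin without signalling through G proteins. A family list of 25 receptors, typical and atypical, also held 18 further genes, which are described as a group below the members.

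Eosinophils came from the peritoneal cavity of C57BL/6 mice carrying the NJ.1638 *Il5* transgene, which all groups share, and T and B cells had been removed with antibodies to Thy1.2 and B220. Cells were left unstimulated or kept for 18 h with IL-4 (100 ng/ml), IFN-γ (50 ng/ml), heat-inactivated *E. coli*, or IFN-γ and *E. coli* together, to compare Type 1 with Type 2 settings. Each of the 4 stimuli had 3 libraries, and 6 libraries were unstimulated. Unstimulated libraries a to c belonged with the *E. coli*, IFN-γ and joint stimuli (12 libraries, called set A), and d to f with the 6 of IL-4, called set B. High *Il5* expression from the transgene and purification by removal of other cells limit these cells as a model of eosinophils in wild-type mice. Age and sex were not given in the labels. The study calls its replicates biological, but nothing says that they came from separate mice, so p-values measure only the spread between these samples, which may be in part technical.

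Counts on genes totalled 1562034 to 2419241 per unstimulated library a to c, 1980073 to 2734041 with *E. coli*, 1654831 to 2006059 with IFN-γ and 1523808 to 1970637 with both. In set B they were 3625036 to 6482289 without stimulus and 3827767 to 5909700 with IL-4. Levels are in CPM, the share of a gene in the counts of its library scaled to a fixed round total, with library sizes adjusted by the TMM method so that most genes are level. A level of 3 counts, taken as the lowest that differs from 0, was 1.00 to 2.19 CPM in set A and 0.497 to 0.833 CPM in set B. Such floors cover counting error only. In set A the highest gene of each library had 4089 to 4095 counts, just under 4096, the number of different sequences of 6 bases, while in set B it had 87377 to 191131. Genes near this ceiling can show smaller differences than the cells held. They can also show differences made by depth, since a bounded count gives a higher CPM in a library with fewer counts.

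Of 10 eosinophil marker genes, 6 passed the filter on low counts in set A and 10 in set B. Their summed level was 4324 ± 709.6 CPM (SD, n = 3) in unstimulated libraries a to c, 3389 ± 236 after *E. coli*, 4041 ± 422 after IFN-γ and 3098 ± 192 after both. In set B it was 5489 ± 448 CPM without stimulus and 5123 ± 103 CPM with IL-4. Without *Ccr3*, which is on the list, the sum in set A was 2893 ± 468 CPM without stimulus, 2079.7 ± 137 after *E. coli*, 2435 ± 262 after IFN-γ and 1564 ± 103 after both. There 2, 4 and 4 of the 6 genes fell and 1, 0 and 1 rose, *Siglecf* falling to 348 ± 24.8 CPM after both. Of all genes tested, 30.2%, 31.6% and 49% were called in these comparisons. The sum without *Ccr3* in set B went from 3340 ± 37.5 to 3822 ± 62.5 CPM with IL-4. There 4 of the 10 genes rose and *Ccr3* alone fell, beside 10.3% of all genes called. The list included *Siglecf* at 1020.4 ± 127 CPM and *Il5ra* at 179 ± 26.9 CPM in libraries a to c. *Siglecf* was at 11.8% to 62.4% of the ceiling over the 12 libraries of set A, and *Alox15*, which with *Ccr3* leads the sum, at 37.1% to 91.1%. After the ceiling correction *Alox15* was at -0.63 with *E. coli*, -0.37 with IFN-γ and -1.38 under both stimuli. As counted these were -0.37, 0.01 and -0.60. If the correction holds at such counts, the sums understate its change. The granule genes were low, with *Prg2* at 29.5 ± 2.75 CPM and *Epx* at 1.43 ± 0.608 CPM in those libraries. T cell markers summed to 3.63 to 7.07 CPM as group means, most of it *Cd3d*, and NK cell markers to no more than 0.426 CPM. Dendritic cell markers, described with *Xcr1*, and mast cell and basophil markers, described with *Ccrl2*, were also summed. The part of these cells in the results was not tested. For any of these markers, fewer cells of a type and less RNA per cell cannot be told apart.

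Every stimulus was set against unstimulated libraries of the same set with the quasi-likelihood test of edgeR over all genes past the filter. A gene counts as called, higher or lower, when its p after adjustment for all genes tested is under 0.05. The comparisons of *E. coli*, IFN-γ and both with unstimulated cells share libraries a to c. Of the 7 receptors, 6 passed the filter in both sets. With *E. coli*, 1 of these 6 was called, against 30.2% of all genes tested. With IFN-γ, 4 were called where 31.6% of all genes were, and with both stimuli 4 against 49%. With IL-4, 3 were called against 10.3% of all genes. The median log2 fold change over the 6 receptors was 0.14 for *E. coli*, 0.52 for IFN-γ, 0.47 for both and 0.33 for IL-4, beside medians of -0.02, -0.03, -0.04 and 0.00 over all genes tested. Both stimuli together differed from *E. coli* alone for 3 receptors (32.8% of all genes called) and from IFN-γ alone for 2 (12.2%). IFN-γ differed from *E. coli* for 3 (25.5%).

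**Figure D1:**
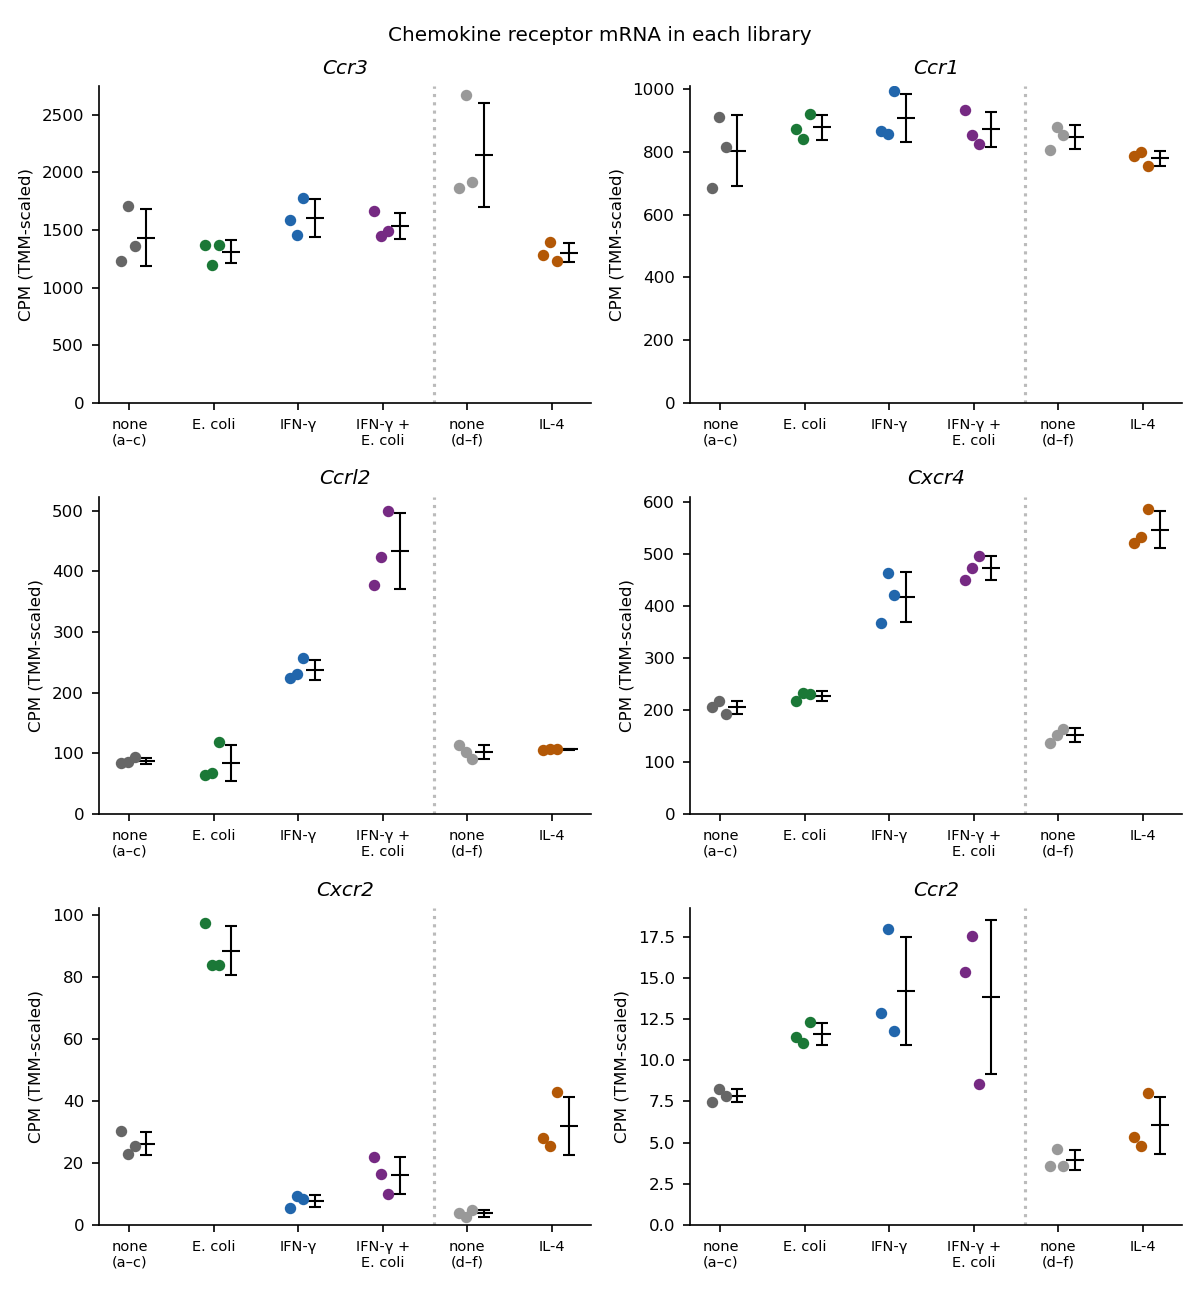
Level of 6 chemokine receptor genes in each library, in CPM on TMM-scaled library sizes, by stimulus. Each point is 1 library, the bar is the mean and the whiskers 1 SD of 3 libraries, and the dotted line parts the 2 library sets. *Cxcr2* was highest with *E. coli* (83.9 to 97.5 CPM) and lowest with IFN-γ (5.60 to 9.23 CPM) among the groups left of that line.

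*Ccr3* (ENSMUSG00000035448, GRCm38, chr9:124021972-124031689) encodes the eotaxin receptor. In unstimulated libraries a, b and c it was at 1228, 1705 and 1359 CPM, with *E. coli* at 1367, 1196 and 1367, with IFN-γ at 1585, 1453 and 1779, and with both at 1665, 1447 and 1489. These groups overlapped with the unstimulated one, and from lowest to highest mean they ran *E. coli*, unstimulated, both, IFN-γ, with no neighbours apart beyond their SDs. In set B the unstimulated libraries were at 1864, 2673 and 1911 CPM and the IL-4 libraries at 1279.7, 1392 and 1233. All 3 IL-4 libraries lay under all 3 unstimulated ones, and library e stood highest. *Ccr3* thus fell with IL-4 by 0.72 on the log2 scale (SE 0.15, 1.65-fold, adjusted p = 0.0117), the mean going from 2149 ± 454 to 1301 ± 81.5 CPM (SD, n = 3). Without IL-4 library 1 or 3 the call ended at -0.70 (adjusted p = 0.0668) and -0.70 (adjusted p = 0.0628), within a range of adjusted p from 1.37e-06 to 0.0668 over the alternatives. The other eosinophil markers did not fall with it: their sum went from 3340 ± 37.5 to 3822 ± 62.5 CPM and none was called lower.

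No change of *Ccr3* was called with the other stimuli. The log2 differences were -0.13 with *E. coli* (95% interval -0.40 to 0.15), 0.17 with IFN-γ (-0.11 to 0.44) and 0.10 with both (-0.17 to 0.37). Without unstimulated library b, which had the highest level of its group, the IFN-γ difference was 0.34 and was called (adjusted p = 0.0425, range over the alternatives 0.0425 to 0.888). Library b also had the fewest counts of its group, 1562034 against 2419241 and 2211861 in a and c. The counts of *Ccr3* in this set were at 55.1% to 87.3% of the ceiling, so that these differences may be compressed. Levels, group orders and gained calls may also follow library depth, which was not tested. With counts corrected for the ceiling the difference was -0.02 for *E. coli*, 0.03 for IFN-γ and -0.19 for both (adjusted p = 0.166), so the sign for both stimuli turned while no call was made. Libraries with IFN-γ and with both stimuli lay above all *E. coli* libraries, yet neither difference, 0.29 (95% interval 0.02 to 0.57) and 0.23 (-0.05 to 0.50), was called. The latter was called with the 6 libraries compared and the replicate number as a block (0.22, adjusted p = 0.0473, range 0.0473 to 0.466). The difference of IFN-γ from *E. coli* was called when only the 6 libraries compared were fitted (adjusted p = 0.0479, range 0.00444 to 0.803). After the ceiling correction it was 0.05, and that of both stimuli from *E. coli* was -0.17.

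*Ccr1* (ENSMUSG00000025804, chr9:123962124-123968692), a receptor for CCL3, CCL5 and related chemokines, was called in none of the 9 comparisons by edgeR. Over all 12 libraries of set A it lay between 686 and 994 CPM, and its group means went from 804 ± 113 CPM without stimulus through 871 ± 55.1 with both stimuli and 877 ± 40.6 with *E. coli* to 906 ± 76.2 with IFN-γ. No neighbours in this order were apart beyond their SDs. The 95% intervals of the log2 differences from unstimulated cells were -0.12 to 0.37 for *E. coli*, -0.07 to 0.42 for IFN-γ and -0.13 to 0.36 for both. In set B the levels were 806, 880.5 and 853 CPM without stimulus and 786, 799.5 and 754 with IL-4. The IL-4 libraries lay just below the others without overlap, at a log2 difference of -0.12 (-0.35 to 0.11, adjusted p = 0.516). Its counts reached 30.6% to 61.3% of the ceiling in set A. After the correction the differences were 0.25 for *E. coli*, 0.14 for IFN-γ and 0.03 for both, none called, so the order of the groups turned.

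*Ccr2* (ENSMUSG00000049103, chr9:124101950-124113557), the CCL2 receptor through which monocytes leave the marrow, was low in all groups. Libraries a to c had 7.45, 8.24 and 7.85 CPM, those with *E. coli* 11.4, 11.03 and 12.3, those with IFN-γ 12.9, 17.9 and 11.8, and those with both 15.3, 17.5 and 8.57. Every stimulated library thus lay above every unstimulated one, by little for the third with both stimuli. IFN-γ raised *Ccr2* by 0.87 on the log2 scale (SE 0.28, 1.83-fold, adjusted p = 0.0243), and both stimuli raised it by 0.83 (SE 0.29, 1.78-fold, adjusted p = 0.0229). With *E. coli* the difference of 0.56 was not called (95% interval -0.02 to 1.15, adjusted p = 0.138). The order of the means was unstimulated, *E. coli*, both, IFN-γ, and the stimulated groups did not differ beyond their SDs. The IFN-γ call ended without unstimulated library a (adjusted p = 0.0816) or c (0.0549), without IFN-γ library 2 (log2 0.69, adjusted p = 0.123) and by DESeq2 (0.0521), over a range of 0.0210 to 0.123. The call with both ended without library a (0.0688), c (0.0505), or library 1 (0.0555) or 2 (log2 0.60, adjusted p = 0.155) with both stimuli, over a range of 0.00339 to 0.155. Set B had levels of 3.61, 4.64 and 3.59 CPM without and 5.33, 4.82 and 8.04 with IL-4, apart but not called (log2 0.59, 95% interval -0.17 to 1.34).

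Markers of monocytes and macrophages were set beside *Ccr2*, since monocytes carry CCR2. All 13 genes of that list passed the filter in both sets. Their summed levels were 5011, 5948 and 5173 CPM in libraries a to c, 4096, 3658 and 5415 with *E. coli*, 6621, 6139.8 and 7118 with IFN-γ and 6357, 6168 and 7259 with both. With IFN-γ 4 genes were higher and 1 lower, with both 3 and 3, and with *E. coli* 0 and 4. *Ly6c2* was the most abundant, at 82.0% to 99.7% of the ceiling in this set, so the sums there are bounded. Its log2 difference with both stimuli was 0.27 (not called) as counted and -0.76 (adjusted p = 4.62e-04) after the ceiling correction. With *E. coli* it was -0.34 (not called) and -1.21 (adjusted p = 9.34e-06). The correction was not tested at such counts, where a few counts change the corrected value much. Set B had sums of 29171, 29987 and 29819 CPM without and 28206, 28968 and 28557 with IL-4, where 0 genes were higher and 5 lower. *Ly6c2* made up most of these sums, at 23019 ± 709 CPM without and 23573 ± 716 CPM with IL-4, so they hardly show the other genes. The median log2 change over the 13 genes was -0.48 with *E. coli*, 0.25 with IFN-γ, 0.18 with both and -0.29 with IL-4. Over all genes 31.6% were called with IFN-γ, 49% with both, 30.2% with *E. coli* and 10.3% with IL-4. None of the 13 genes was at 0 in all libraries of a group. Their part in the receptor results was not tested.

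*Ccrl2* (ENSMUSG00000043953, chr9:111054486-111057519), the chemerin-binding receptor, rose with IFN-γ and further with both stimuli. It was at 83.5, 85.6 and 93.7 CPM in libraries a to c, at 64.9, 68.2 and 119 with *E. coli*, at 225, 231 and 257 with IFN-γ and at 378, 424 and 501 with both. The IFN-γ libraries lay above all unstimulated and *E. coli* libraries, and those with both stimuli above all others. In the order of means, *E. coli* at 84.0 ± 30.3 CPM (SD, n = 3) and unstimulated at 87.6 ± 5.43 did not differ beyond their spread, whereas IFN-γ at 238 ± 17.0 and both at 434 ± 62.1 did. The rise was 1.44 on the log2 scale with IFN-γ (SE 0.18, 2.71-fold, adjusted p = 4.49e-06) and 2.31 with both (SE 0.18, 4.95-fold, adjusted p = 3.90e-09). Against *E. coli* alone it was 2.38 (5.22-fold, adjusted p = 5.22e-09), and against IFN-γ alone 0.87 (1.83-fold, adjusted p = 0.00157). *E. coli* alone gave a difference of -0.08 (95% interval -0.46 to 0.30).

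The level of *Ccrl2* with both stimuli was more than the sum of the separate log2 effects. This interaction, called for 4.62% of all genes tested, was 0.95 on the log2 scale (SE 0.25, adjusted p = 0.0308), and *Ccrl2* was the 1 receptor of 6 for which it was called. It rests on few libraries. Leaving out any 1 of 10 of the 12 libraries, all but *E. coli* library 3 and library 1 with both stimuli, ended the call at 0.78 to 0.99 (adjusted p = 0.0505 to 0.117). Over all alternatives the adjusted p ran from 3.87e-04 to 0.117. *E. coli* library 3, at 119 CPM against 64.9 and 68.2 in the other two, was the highest of its group. In the same library mast cell and basophil markers summed to 23.2 CPM against 6.93 and 5.68, and monocyte and macrophage markers to 5415 CPM against 4096 and 3658. Of 7 mast cell and basophil markers 1, *Tpsb2*, was tested in set A, where its means were 3.77 CPM without stimulus, 8.02 after *E. coli*, 11.1 after IFN-γ and 24.4 after both. *Tpsb2* was called with IFN-γ (1.51, adjusted p = 0.0327), but not without library a, b or c or IFN-γ library 1 (0.0599, 0.0682, 0.0912 and 0.182), and with both (2.65, adjusted p = 1.18e-04). Its interaction was 0.20 (95% interval -1.29 to 1.68) and not called. B cell markers in *E. coli* library 3 summed to 76.5 CPM against 40.8 and 44.5, and the interaction was called higher for the 5 of them tested, at 2.32 to 2.98. The part of these cells in the *Ccrl2* results was not tested. With IL-4 *Ccrl2* was at 106, 108 and 108 CPM beside 113, 103 and 90.2 without stimulus, groups that overlapped, with a log2 difference of 0.07 (95% interval -0.21 to 0.35).

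*Cxcr4* (ENSMUSG00000045382, chr1:128588199-128592293), the CXCL12 receptor, rose with each stimulus except *E. coli* alone. Libraries a to c were at 206, 217 and 193 CPM, those with *E. coli* at 217, 233 and 232, those with IFN-γ at 367, 463 and 422, and those with both at 451, 474 and 496. Libraries with IFN-γ, alone or with *E. coli*, lay above all the others. The means rose in the order unstimulated, *E. coli*, IFN-γ, both, and only the step from *E. coli* to IFN-γ was called between neighbours (log2 0.88, adjusted p = 4.29e-06). *Cxcr4* rose by 1.02 on the log2 scale with IFN-γ (SE 0.11, 2.03-fold, adjusted p = 8.08e-07) and by 1.21 with both (SE 0.11, 2.31-fold, adjusted p = 4.00e-08). The difference with *E. coli* was 0.15 (95% interval -0.08 to 0.38), and that of both from IFN-γ alone 0.18 (-0.04 to 0.40). With both stimuli it was 1.06 above *E. coli* alone (adjusted p = 3.50e-07), and the interaction was 0.03 (-0.29 to 0.35).

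IL-4 also raised *Cxcr4*. The unstimulated libraries of that set were at 137, 153 and 164 CPM and the IL-4 libraries at 522, 533 and 588. All IL-4 values were above all the others, at a log2 fold change of 1.85 (SE 0.12, 3.61-fold, adjusted p = 2.63e-05). Leaving out single libraries kept it between 1.78 and 1.91.

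*Cxcr2* (ENSMUSG00000026180, chr1:74153989-74161246), the receptor for CXCL1, CXCL2, CXCL3, CXCL5 and PPBP, rose with *E. coli* and IL-4 and fell with IFN-γ. Its levels were 30.2, 22.8 and 25.6 CPM in libraries a to c, 97.5, 83.9 and 83.9 with *E. coli*, 5.60, 9.23 and 8.50 with IFN-γ and 21.9, 16.4 and 9.89 with both. The groups did not overlap, and their order from low to high was IFN-γ, both, unstimulated, *E. coli*. With *E. coli* the rise was 1.73 on the log2 scale (SE 0.18, 3.33-fold, adjusted p = 6.63e-07), and with IFN-γ it fell by 1.76 (SE 0.26, 3.39-fold, adjusted p = 3.74e-05). Against each other IFN-γ and *E. coli* differed by -3.50 (11.3-fold, adjusted p = 9.96e-10). Under both stimuli *Cxcr2* fell by 0.73 from unstimulated (SE 0.23, 1.66-fold, adjusted p = 0.0137) and differed from *E. coli* alone by -2.47 (5.53-fold, adjusted p = 2.39e-08).

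These calls with both stimuli depended on single libraries in part. The fall from unstimulated was not called without library a (-0.61, adjusted p = 0.0713) or without library 3 with both stimuli (-0.47, adjusted p = 0.0907), over a range of 0.00435 to 0.0907. Above IFN-γ alone *Cxcr2* was 1.03 higher on the log2 scale (SE 0.30, 2.04-fold, adjusted p = 0.0281). That call ended without IFN-γ library 1 (0.84, adjusted p = 0.135), without library 1 (0.78, 0.129) or 2 (1.00, 0.0902) with both stimuli, and with only the 6 libraries compared (1.01, 0.0853), over a range of 0.00531 to 0.135. The interaction was -0.70 (95% interval -1.45 to 0.04) and not called. With IL-4 *Cxcr2* went from 3.89, 2.48 and 4.91 CPM to 28.0, 25.4 and 42.8 CPM. The groups were far apart, at a log2 fold change of 3.09 (SE 0.30, 8.52-fold, adjusted p = 2.04e-04). The unstimulated mean was 3.76 ± 1.22 CPM in this set but 26.2 ± 3.72 CPM in libraries a to c. The IL-4 mean of 32.1 ± 9.37 CPM was thus near the unstimulated level of the other set. Why the unstimulated levels differ between the sets was not tested.

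Neutrophil markers were set beside *Cxcr2*, since neutrophils carry CXCR2. Of 10 such genes, 4 passed the filter in set A and 5 in set B. Their summed levels were 575, 696 and 564 CPM in libraries a to c, 365, 352 and 419 with *E. coli*, 691, 639 and 746 with IFN-γ and 343, 411 and 442 with both. For set B they were 1999.6, 1950.1 and 1684 CPM without and 789, 817 and 743 with IL-4. *Retnlg* made up most of each sum. Without it the other 9 genes summed to 27.3 ± 6.49 CPM in libraries a to c, 91.7 ± 46.1 after *E. coli*, 76.9 ± 5.32 after IFN-γ and 87.1 ± 28.5 after both, and in set B to 23.4 ± 2.15 without and 28.5 ± 6.72 with IL-4. The sums without *Retnlg* were thus higher after *E. coli* and after both, where the full sums were lower. *S100a8*, 1 of these 9 genes, was at 8.58 ± 1.96 CPM in libraries a to c. It was at 72.1 ± 43.7 CPM after *E. coli*, 39.2 ± 6.08 after IFN-γ and 55.1 ± 26.8 after both. Among genes of neutrophil granules, *Ltf* was at 0 in every library a to c, *Elane* with *E. coli*, *Mpo*, *Elane* and *Ltf* with IFN-γ, and *Ngp* and *Ltf* with both. None was at 0 throughout a group of set B. *Camp* had means of 0.124 CPM in libraries a to c and 1.15 after *E. coli*, where *Mpo* and *Elane* had lower means. With IL-4 *Elane* went from 0.473 to 1.97 CPM, while *Mpo*, *Camp*, *Ngp* and *Ltf* had lower means. These granule genes were not tested. With *E. coli* *S100a8* was higher by 3.06 (adjusted p = 1.79e-05) and *Retnlg* changed by -1.02 (adjusted p = 2.14e-06). With IFN-γ *Ly6g* rose by 2.27 (adjusted p = 2.16e-05) and *S100a8* by 2.20 (adjusted p = 0.00106). With IL-4 *Retnlg* fell by 1.30 on the log2 scale (adjusted p = 1.13e-04), the 1 gene called of 5 tested (median 0.38). *Csf3r* went from 5.03 ± 1.37 to 9.65 ± 1.89 CPM with IL-4 and was not called. With both stimuli 2 of the 4 genes tested were higher and 1 lower, after *E. coli* 1 and 1, and after IFN-γ 2 and 0. Over all genes 30.2% were called with *E. coli*, 31.6% with IFN-γ, 49% with both and 10.3% with IL-4. The part of neutrophils in the *Cxcr2* results was not tested.

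*Cx3cr1* (ENSMUSG00000052336, chr9:119901616-120069879), the fractalkine receptor of monocytes, was not tested. It had 0 or 1 count in each library of set A. In set B it had 1, 2 and 0 counts without stimulus and 0 in each IL-4 library. No library exceeded the floor of 3 counts, so a difference was not detectable at this depth. Its exons overlap an antisense gene, *Gm33858*, on the opposite strand.

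**Figure D2:**
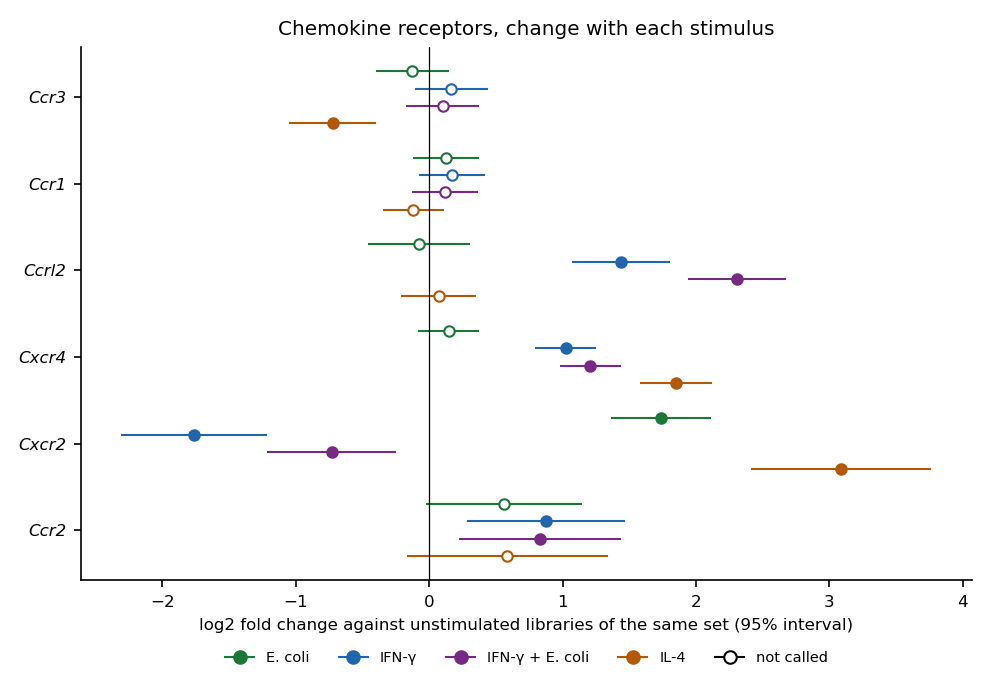
Log2 fold change of 6 chemokine receptors with each stimulus against the unstimulated libraries of the same set, with 95% intervals. Filled points are called at an adjusted p under 0.05 and open points are not. *Cxcr2* lies at 1.73 for *E. coli*, -1.76 for IFN-γ and 3.09 for IL-4.

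The IL-4 response was tested against the response to both stimuli with the 18 libraries fitted together, each response taken against its own unstimulated libraries. Of the 6 receptors 4 were called, where 39.2% of all genes were. *Cxcr2* (3.75, adjusted p = 1.15e-07) and *Cxcr4* (0.59, adjusted p = 0.00450) had the higher log2 response to IL-4. *Ccrl2* (-2.29, adjusted p = 1.05e-07) and *Ccr3* (-0.89, adjusted p = 0.00144) had the lower. With ceiling-corrected counts *Ccr3* was at -0.52 (adjusted p = 0.0304, range over the alternatives 9.07e-05 to 0.0304). *Ccr1* at -0.30 (95% interval -0.63 to 0.03) and *Ccr2* at -0.32 (-1.20 to 0.56) were not called. The library sets and the stimuli cannot be told apart in this comparison beyond what the unstimulated libraries of each set remove. For *Cxcr2* those libraries were at 26.2 ± 3.72 CPM in set A and 3.76 ± 1.22 CPM in set B.

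The genes with the most similar pattern over the 12 libraries of set A were taken by Pearson's r of log2 CPM, as a description. The libraries form 4 groups and are the same for each pair. For *Ccrl2* they were *Hmox1* (r = 0.995), *F10* (r = 0.989) and *Sh3glb1* (r = 0.986), and for *Cxcr4* they were *Higd1a* (r = 0.988), *Pfkfb3* (r = 0.987) and *Mthfd1l* (r = 0.986). *Cxcr2* was most like *Mgll* (r = 0.971), *Bcl2* (r = 0.969) and *Sorl1* (r = 0.966). Set B had no part in this choice. There *Higd1a* (log2 0.78, adjusted p = 0.0210) and *Mthfd1l* (1.05, adjusted p = 0.0408) were higher with IL-4, as was *Cxcr4*, but *Pfkfb3* was not called (0.16). *Mgll* (0.10), *Bcl2* (-0.80) and *Sorl1* (0.05) were not called where *Cxcr2* rose. *Hmox1* was at -2.14 (adjusted p = 9.61e-05) where *Ccrl2*, *F10* (-0.07) and *Sh3glb1* (-0.25) were not called. *Ccr3* was most like *Ly6c2* (r = 0.959), *Ly6e* (r = 0.950) and *Itm2b* (r = 0.946), of which *Ly6e* was higher with IL-4 (0.40, adjusted p = 0.0358), where *Ccr3* fell, and the others were not called. *Ccr1* was most like *Mff* (r = 0.892) and *Ccr2* like *Gm43499* (r = 0.935). *Ly6c2* was at 82.0% to 99.7% of the ceiling and *Ccr3* at 55.1% to 87.3%, so library depth may add to their r, which was not tested. Among the receptors *Cxcr4* and *Ccrl2* were most alike (r = 0.947).

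*Ccr1*, *Ccr3* and *Ccr2* lie together on chromosome 9, within 151.4 kb, and *Ccrl2* and *Cx3cr1* are on the same chromosome. Only *Cxcr2* shared a stretch of at least 200 bases at 95% identity or more with transcripts of other genes. This stretch, bases 1665 to 1876 of its 3046-base transcript, lies after the coding part and matched 6 other genes. *Ccr1* and *Ccr1l1* share 1043 bases at 78.1% identity.

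Promoters from RefSeq (GRCm38.p6), 250 bases before to 50 after the start, matched all 7 receptors in 9 windows. Both strands were searched for HRE (ACGTG or GCGTG), which 43.8% of the 32851 promoters held, the STAT6 site (TTCNNNNGAA, 6.95%) and the NF-κB site (GGGNNNNNCC, 50.8%). No member window held the STAT6 letters, which says only that these letters are not in these windows. Another motif searched, held by 8.3% of the promoters and not named here, was also in no member window. The windows of *Cxcr4* (chr1:128592250-128592549, minus strand) and *Ccrl2* (the first of 3, chr9:111057469-111057768, minus strand) are shown because both genes rose with IFN-γ and have matches. *Ccr2*, which also rose with IFN-γ, has no match to any motif named here in its window. *Ccr1*, called in no comparison, and *Cx3cr1*, not tested, have an HRE and an NF-κB match, and *Ccr3*, not called with IFN-γ, an NF-κB match. That of *Cxcr2* (chr1:74153744-74154043, plus strand) is shown because it moved the other way. Capitals mark the matches, written 5′ to 3′ along the gene. *Cxcr4* has an HRE, *Cxcr2* an NF-κB match, and *Ccrl2* an HRE and several NF-κB matches, of which those at -56 and -55 overlap. The other windows of *Ccrl2*, not shown, hold HRE matches but no NF-κB match. A match is a description, not a site.
Cxcr4: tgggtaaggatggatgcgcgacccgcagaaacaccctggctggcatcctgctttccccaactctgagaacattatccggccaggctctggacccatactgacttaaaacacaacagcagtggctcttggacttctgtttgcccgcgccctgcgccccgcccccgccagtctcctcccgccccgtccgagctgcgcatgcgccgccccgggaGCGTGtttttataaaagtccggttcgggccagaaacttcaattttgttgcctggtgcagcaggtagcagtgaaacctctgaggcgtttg
Ccrl2: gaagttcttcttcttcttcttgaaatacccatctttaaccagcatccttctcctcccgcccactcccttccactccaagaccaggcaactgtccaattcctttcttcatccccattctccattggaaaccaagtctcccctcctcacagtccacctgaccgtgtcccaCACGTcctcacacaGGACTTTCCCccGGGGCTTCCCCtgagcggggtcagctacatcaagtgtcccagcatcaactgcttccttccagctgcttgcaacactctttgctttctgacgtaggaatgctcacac
Cxcr2: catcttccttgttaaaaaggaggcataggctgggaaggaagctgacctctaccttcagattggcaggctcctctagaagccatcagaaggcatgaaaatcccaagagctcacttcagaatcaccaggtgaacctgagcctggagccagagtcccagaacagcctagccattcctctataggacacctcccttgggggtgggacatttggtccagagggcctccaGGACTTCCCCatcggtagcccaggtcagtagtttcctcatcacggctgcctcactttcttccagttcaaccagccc

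Ligands of the receptors were measured in the same cells. Of 20 ligand genes, 15 passed the filter in set A and 16 in set B. With *E. coli* 9 rose and 2 fell, with a median log2 change of 1.19 over the 15. With IFN-γ 5 rose and 2 fell (median 0.37), and with both stimuli 11 rose and 1 fell (median 1.60). With IL-4 7 rose and 5 fell of 16 (median 0.33). Of all genes tested, 30.2%, 31.6%, 49% and 10.3% were called in these comparisons. With *E. coli* the genes with the largest rises were *Cxcl5* at 3.76 on the log2 scale, *Ccl3* at 3.41 and *Cxcl3* at 3.25. *Cxcl3* reached 94.5% of the ceiling and *Ccl3* 64.6%, and after the correction the rises with *E. coli* were 4.04 and 3.66, which turns their order. With IFN-γ, which lowered *Cxcr2*, *Ppbp* rose by 3.53 and *Cxcl3* by 3.04. Under both stimuli *Ccl3* rose by 4.91, from 51.6 ± 2.25 to 1558 ± 118 CPM (SD, n = 3) or by 5.52 after the correction, and *Cxcl5* by 4.56. The interaction was called for *Cxcl3* (-2.10, adjusted p = 4.56e-06) and *Ppbp* (-2.15, adjusted p = 4.22e-04), whose joint rise was under the sum of the separate rises, and for *Ccl3* (-0.74, adjusted p = 0.0160), where the ceiling correction ended the call (-0.45, adjusted p = 0.157). It was called in the other direction for *Cxcl1* (1.48, adjusted p = 0.0173) and *Ccl12* (1.44, adjusted p = 0.0200). The *Cxcl1* call ended without library a (0.0843), IFN-γ library 2 (0.0639) or library 2 with both (0.0501), and that of *Ccl12* in 6 omissions (0.0506 to 0.0643). In all, 2 ligands were higher and 3 lower of 15, beside 4.62% of all genes.

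With IL-4 *Ccl8* rose by 3.43 on the log2 scale, its mean going from 10.6 ± 3.61 to 111 ± 5.81 CPM (SD, n = 3), and *Ccl24*, which encodes an eotaxin that binds CCR3, by 1.52. *Ccl24* also rose with both stimuli, by 1.52 (adjusted p = 1.68e-04). *Cxcl12*, the CXCR4 ligand, rose by 1.78 (adjusted p = 0.0255) from 1.46 ± 0.559 to 4.98 ± 0.186 CPM, but the call ended without unstimulated library e (adjusted p = 0.0505) or IL-4 library 1 (0.104), 2 (0.102) or 3 (0.0915). *Ppbp* fell by 3.67 and *Cxcl3* by 1.46, where *Cxcr2* rose. *Ccl6*, a very abundant CCR1 ligand, fell by 1.00. In set A *Ccl6* was at 93.6% to 99.9% of the ceiling. With both stimuli its mean as counted went from 1932 ± 569 to 2535 ± 320 CPM, which was not called. After the correction the difference was -0.47 (adjusted p = 0.00878), of the other sign. So near the ceiling, CPM depends on library depth and the corrected value on a few counts. The direction of the change in *Ccl6* can thus not be read in set A. *Ccl11*, the eotaxin gene, did not exceed 3 counts in any group and was not tested.

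**Figure D3:**
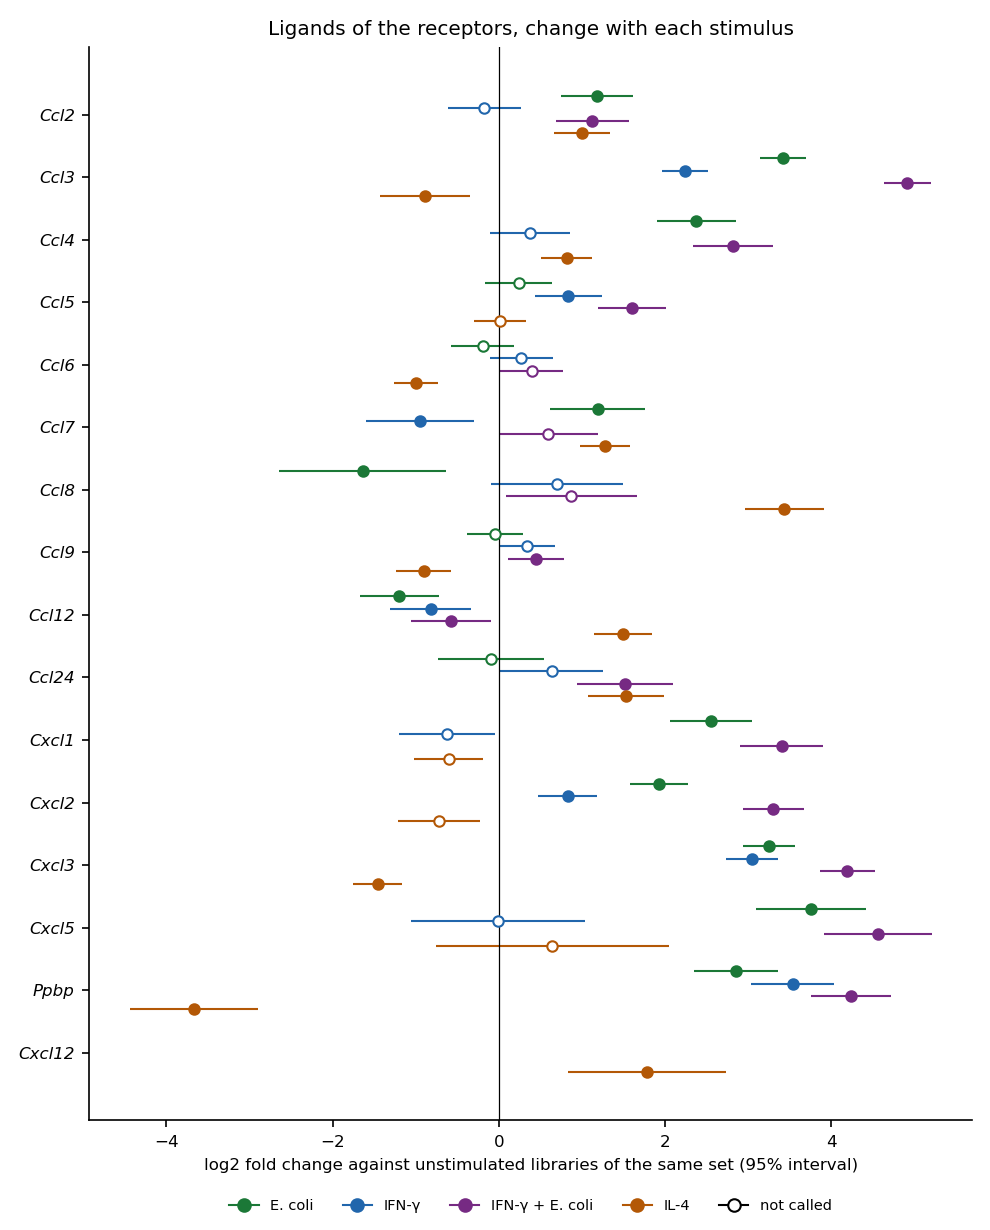
Log2 fold change of 16 ligand genes with each stimulus against the unstimulated libraries of the same set, with 95% intervals. Filled points are called and open points are not. *Ppbp* lies at 3.53 with IFN-γ and -3.67 with IL-4, and *Ccl3* at 4.91 with both stimuli.

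Among the 18 other receptors of the family, 3 passed the filter in set A and 5 in set B. With *E. coli* 2 of 3 fell, *Ccr7* by 1.60 on the log2 scale. With IFN-γ edgeR and DESeq2 called 0 of 3 (median 0.04), with 1 at an unadjusted p under 0.05. With both stimuli 1 rose and 1 fell (median -0.33), and *Ccr7* was 0.87 higher (adjusted p = 0.0224). That call ended without unstimulated library a (0.68, adjusted p = 0.116) or library 2 with both stimuli (0.63, 0.151). *Xcr1* rose with IL-4 by 1.34 (adjusted p = 0.0420), 1 of 5 tested (median 0.23), and over all genes 30.2%, 31.6%, 49% and 10.3% were called in these comparisons. Leaving out any 1 of the 6 libraries ended that call (adjusted p = 0.0504 to 0.204). *Xcr1* is also a marker of dendritic cells. The 6 genes of that list, of which 2 were tested in set B and none in set A, summed to 5.93 ± 1.84 CPM without stimulus and 13.0 ± 5.15 CPM with IL-4, and to 3.09 ± 1.57 and 5.89 ± 4.0003 CPM without *Xcr1*. The means in set A were 7.74 to 8.80 CPM, and the part of these cells was not tested.

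B cell markers were set beside *Ccr7*, which B cells carry. Of 6 such genes 5 were tested in set A. They summed to 217, 196 and 117 CPM in libraries a to c, 40.8, 44.5 and 76.5 with *E. coli*, 100.2, 61.5 and 58.2 with IFN-γ and 121, 134 and 128 with both, with *Ighm* most abundant and none at 0 throughout a group. With *E. coli* all 5 fell, as did *Ccr7*, and with IFN-γ 4 fell. With both stimuli edgeR and DESeq2 called 0 of 5, and 1 had an unadjusted p under 0.05. Set B had sums of 24.995, 23.7 and 43.4 CPM without and 64.3, 58.7 and 71.8 with IL-4, and 3 of 4 genes rose. *Ccr7* itself was at 14.0 ± 3.36 CPM in libraries a to c and 21.8 ± 6.85 with IFN-γ, apart but not called. In set B *Ccr7* was at 6.03 ± 1.99 CPM without and 6.035 ± 0.962 CPM with IL-4. The shares of all genes called were 30.2%, 31.6%, 49% and 10.3%. The part of B cells in the *Ccr7* result was not tested.

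Below the receptors, all 14 genes for G protein subunits and effectors were tested. With *E. coli* 1 rose and 4 fell (median log2 change -0.07), with IFN-γ 3 rose and 4 fell (-0.22) and with both 2 rose and 6 fell (-0.28), beside the 30.2%, 31.6% and 49% of all genes called. *Gng2*, a γ subunit, rose by 1.52 with IFN-γ and by 1.32 under both stimuli, and *Gnb1*, a β subunit, by 0.59, 0.66 and 0.92 with *E. coli*, IFN-γ and both, respectively. *Plcb2*, the phospholipase C that βγ subunits activate, fell by 0.65, by 0.74 and by 1.82 on the log2 scale. *Pik3r5*, a subunit of PI3Kγ, fell by 0.66, by 0.69 and by 0.98. With IL-4 edgeR and DESeq2 called 0 of 14 (median -0.18), while 4 had an unadjusted p under 0.05.

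Of 14 genes whose products end receptor signals (receptor kinases, arrestins and RGS proteins), 12 were tested in each set. With *E. coli* 3 rose and 2 fell (median log2 change -0.06), with IFN-γ 2 rose and 6 fell (-0.45), with both 3 rose and 9 fell (-0.80) and with IL-4 1 rose and 3 fell (-0.12), beside the 30.2%, 31.6%, 49% and 10.3% of all genes called. *Arrb1*, the β-arrestin 1 gene, rose by 0.57, 0.85 and 1.10 with *E. coli*, IFN-γ and both, and *Rgs10* by 1.25, 0.87 and 1.05 in the same order. The receptor kinase gene *Grk5* fell by 0.79 with IFN-γ and by 1.33 with both, and *Rgs2* fell by 1.00 with *E. coli* and by 1.57 with both. Its counts reached 84.1% of the ceiling, and after the correction these changes were -1.51 and -2.27. With IL-4 *Rgs2* was at 0.74 (adjusted p = 0.0302), *Grk5* at -0.94, *Grk6* at -0.70 and *Rgs10* at -0.67. Among other omissions, each of these IL-4 calls ended when IL-4 library 1 (adjusted p = 0.138, 0.0682, 0.123 and 0.131, in the same order) or 2 was left out (0.124, 0.0571, 0.0984 and 0.113).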

How the data were processed

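The counts for each Ensembl gene and library are those the authors deposited. Per the submitters' notes fastp 0.20.1, STAR 2.7.2a, TopHat2 2.1.0 and HTSeq 0.6.1 were used with GRCm38. CEL-Seq2 and a HiSeq run are both described, but which libraries used which, and whether molecular identifiers were collapsed, is not given in the sources used here. Lines for reads on no gene or on several held 21.1% to 39.4% (median 32.4%) of the counts in set A and were left out. Set B had none.

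R 4.3.3 was used with edgeR 4.0.16 (filterByExpr, TMM, quasi-likelihood test, Benjamini-Hochberg adjustment over all genes tested, adjusted p under 0.05, no fold threshold). One model held the 12 libraries of set A (9883 genes), another the 6 of set B (10556) and another all 18 (10671). SEs are approximate, being computed from F and the log2 fold change, and 95% intervals used a t distribution with the total degrees of freedom. Replicates differed by more than counting error, the chi-square within groups, divided by the number of genes, being 1.59 to 5.46 (set A) and 3.51 to 21.4 (set B). Log2 CPM for correlations had a prior count of 2. Gene positions are from GENCODE M21, and similar transcripts were searched with BLAST 2.17.0.

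The members and lists were chosen with earlier results of these data known. Named genes are all members and, from each other list and comparison, up to 3 called genes with the largest rise and up to 3 with the largest fall. For each tested member the 3 genes with the highest r were taken. Some genes that fall under the rule are not described. Genes beyond it, among them markers and *Ccl11*, were named after their values were seen.

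The alternatives were DESeq2 1.42.0 as the tool, edgeR with the size factors of DESeq2, no filter, a minimum of 10 counts per library, a threshold of 2-fold change, each library left out, only the 6 libraries compared, and the replicate block. A correction for a ceiling of 4096 was chosen after seeing the data. It was tested on simulated data, but not at counts as near the ceiling as those of *Ly6c2*, *Ccl6* or the highest of *Alox15*, *Cxcl3* and *Ccr3*. It takes a count as the number of different identifiers of 6 bases drawn at random.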

Additional observations from a re-analysis of the deposited data

Results flagged for a closer look

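These results stood out by a test of the difference between effects. The effect of IFN-γ and *E. coli* together on *Ccrl2* differed from the sum of their separate effects by 0.95 on the log2 scale. That call ended in most omissions of a single library. The response to IL-4 differed from that to IFN-γ and *E. coli* for *Ccr3* by -0.89, for *Ccrl2* by -2.29, for *Cxcr2* by 3.75 and for *Cxcr4* by 0.59 on the log2 scale. With counts corrected for the ceiling the *Ccr3* difference was -0.52. Groups of 3 libraries were not tested for samples far from the others.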

How the results depend on the processing

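No receptor result reversed with a call under any alternative. Receptor calls that ended or were gained other than by the 2-fold threshold are given beside the results or below. A threshold of 2-fold change, which by construction leaves fewer genes, left 1023 genes with *E. coli*, 1187 with IFN-γ, 2210 with both (2 receptors), 478 with IL-4, 1325 for both against *E. coli*, 404 for both against IFN-γ (1 receptor), 1027 for IFN-γ against *E. coli*, 245 for the interaction (0 receptors) and 2728 for the IL-4 response against that to both (2 receptors). It ended the calls of *Ccr2* with IFN-γ and with both, *Cxcr2* with both, *Ccr3* with IL-4, *Ccrl2* for both against IFN-γ and the interaction, *Cxcr4* for IFN-γ against *E. coli*, and *Ccr3* and *Cxcr4* for the IL-4 response. Without a filter 1634 genes were called with IL-4, where the cause was not tested. With only the 6 libraries compared, 1 receptor was called for both against IFN-γ.

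With 1 library left out, and so fewer samples, 2 to 4 receptors were called with both stimuli, and 0 to 1 receptors and 266 to 562 genes for the interaction. For both against IFN-γ the counts were 1 to 2 receptors and 740 to 1122 genes, and with IL-4 483 to 1394 genes.

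With the 6 libraries compared and the replicate block, 3142 genes and 4 receptors were called for both against *E. coli*, 1418 and 2 for both against IFN-γ, and 2637 and 4 for IFN-γ against *E. coli*. *Ccr3* was then called, at 0.22 (adjusted p = 0.0473) for both against *E. coli* and 0.29 (adjusted p = 0.00444) for IFN-γ against *E. coli*, the latter also without the block (adjusted p = 0.0479). No other receptor call changed. The 9 pairs of libraries with the same number had r of -0.04 to 0.33, 4 of them over 0.1. Of 3 libraries, 1, 2 and 1 correlated best with their own number, so the numbers were not taken as pairs.

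Groups of 3, unknown animals, the ceiling, depth and purity limit these results, as do bulk libraries that mix cells.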
